A study of Mus musculus with 6 samples.

Results

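The proteasome genes examined here were the genes whose platform symbol begins with Psma, Psmb, Psmc, Psmd or Psme followed by a number, each named by a probe set that carries no other symbol. They numbered 45 of the 19938 genes named in this way, on 51 of 21789 such probe sets. The study asked how 2-methyl-2-thiazoline (2MT), a small thiazoline compound, protects the heart. It used male C57BL/6 mice aged 10 weeks and hybridised left ventricle RNA to Affymetrix arrays, 3 for saline and 3 for 2MT. 2MT was given under the skin at 50 mg/kg and hearts were taken after 4 h. The protocol text describes that injection for all samples and gives no separate route or interval for saline, and the group comes from each sample's treatment label. Nothing in the labels says that the arrays stand for separate animals, so p-values reflect only how these samples vary, and that variation may be technical.

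Values are log2 signals of probe sets, and a difference of 1 is a doubling of signal. Signals of different probe sets are not compared as levels, because probes differ in brightness. Array medians lay between 4.32 and 4.37. Genes with a mean over the 6 arrays of at least 4.345, the median of all probe sets, were tested, which kept 10547 genes and 43 of the 45 proteasome genes. As a check of the labelled tissue, 8 of 8 cardiomyocyte markers lay above that floor, whereas 0 of 7 measured lymphocyte markers and 0 of 6 neutrophil markers did. Saline 3 stood apart in the summed signal of the 3 measured erythrocyte markers. The sum was 8.03 on the log2 scale there and 7.01 to 7.27 on the other 5 arrays. Alas2 was at 7.07 on saline 3 and 5.15 to 5.76 elsewhere, and Bpgm at 6.77 and 6.26 to 6.40. Slc4a1, under the floor, did not set saline 3 apart, at 4.08 there and 4.07 on saline 1.

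The proteasome degrades proteins tagged with ubiquitin. Its barrel-shaped 20S core is a stack of alpha and beta rings, and the 19S particle docks on the core, recognises ubiquitin, removes it, and uses ATPases to unfold and thread the substrate. Interferon induces counterparts that take the place of the catalytic beta subunits, giving the immunoproteasome, which is linked to the supply of peptides for MHC class I. In the heart, proteasomes take part in turnover of sarcomere and damaged proteins, and NRF2 and NRF1, encoded by Nfe2l2 and Nfe2l1, are known regulators of subunit genes.

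Transcripts of the constitutive 26S proteasome (the 20S core with its 19S particle) were slightly lower in 2MT hearts, and those of the 3 inducible catalytic subunits were slightly higher, but only Psmd4, which encodes a ubiquitin receptor of the 19S particle, passed the test. Of 43 tested members 1 fell and 0 rose with an adjusted p under 0.05 in limma, against a background of 4.63% of all tested genes (2.41% lower and 2.22% higher). The member count was therefore no larger than the background. At an unadjusted p under 0.05, 15 members were lower and 2 were higher, where the shares of all tested genes were 8.15% and 9.6%, together 17.8%. Tissue arrays cannot tell fewer cells of a type from less RNA per cell.

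The shift was small and spread over many subunits. The 31 constitutive subunits of the core and the 19S particle had a median log2 difference of -0.14, or 1.10-fold lower, beside a median of 0.00 for all genes tested. Their differences ran from -0.26 for Psmd4 to 0.05 for Psmd12 and Psmd14. The mean was lower in 2MT for 26 of the 31 (83.9%), and for 48.1% of all tested genes. The groups did not overlap in 17 of the 43 members, against 21.1% of all tested genes. Among the 31, every 2MT array lay below every saline array in 16 (51.6%), against 10.1% of all genes, and above in 0, against 11.1%. The 31 were read on the same arrays and may vary together, so they cannot be counted as independent readings. Here and elsewhere, the shares of all genes were not matched for signal. Without saline 3, the array with the high erythrocyte sum, 17 of 31 were lower in 2MT without overlap and 1 higher. The shares of all genes were then 17.1% and 17.7%. Leaving out an array cannot, however, bring overlap to groups of the same probe set that had none. Under quantile normalization, median centring and cyclic loess the lower count was 18, 13 and 18 of 31, against 10.6%, 9.18% and 11.6% of all genes.

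**Figure D1:**
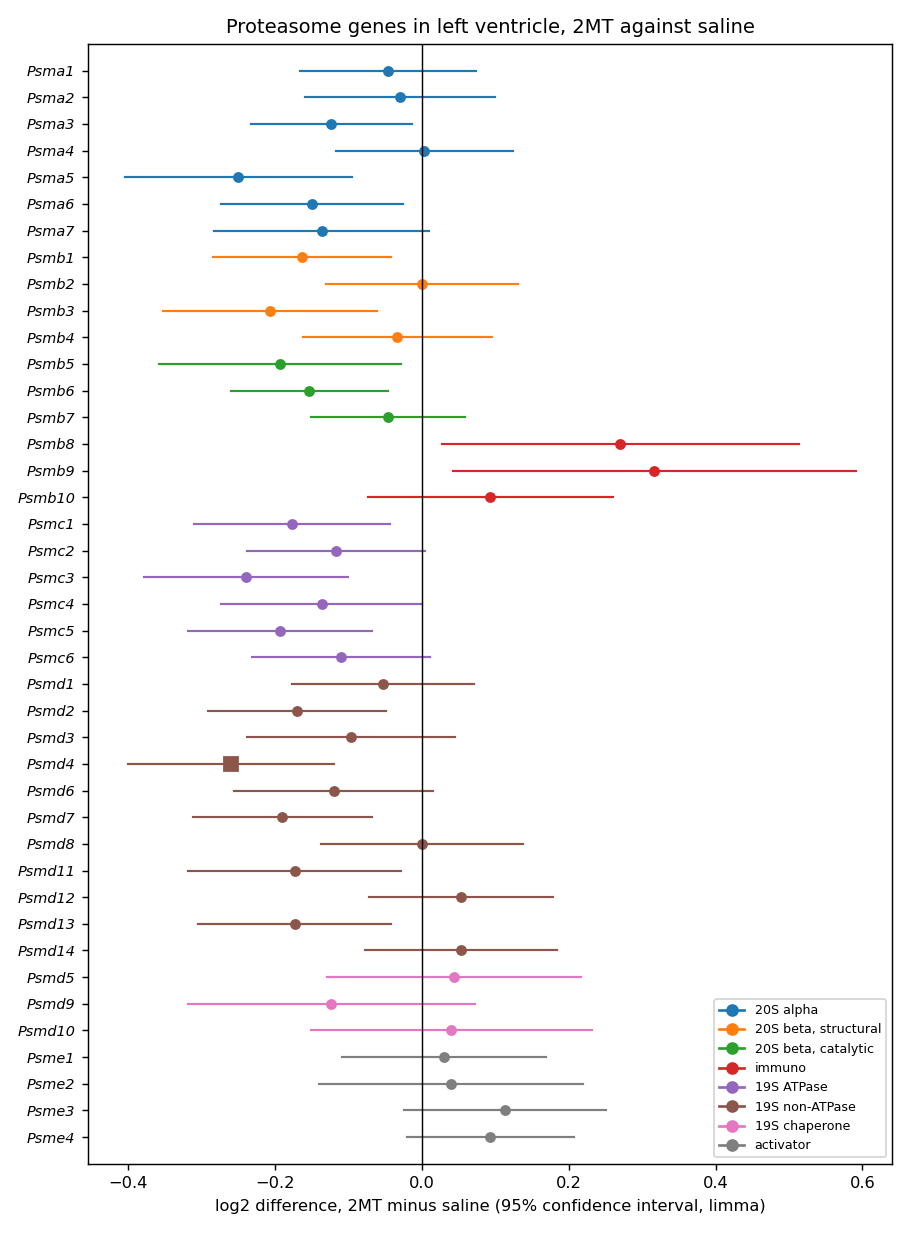
Log2 difference between 2MT and saline (x axis) for the 41 tested proteasome genes with a known role, grouped and coloured by role. Points are differences of means of 3 arrays, bars are 95% confidence intervals from limma, and the square marks Psmd4, the only gene past an adjusted p of 0.05. Most constitutive subunits lie left of 0, Psmb8 and Psmb9 lie farthest right at 0.27 and 0.32, and the activators lie between 0.03 and 0.11.

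**Figure D2:**
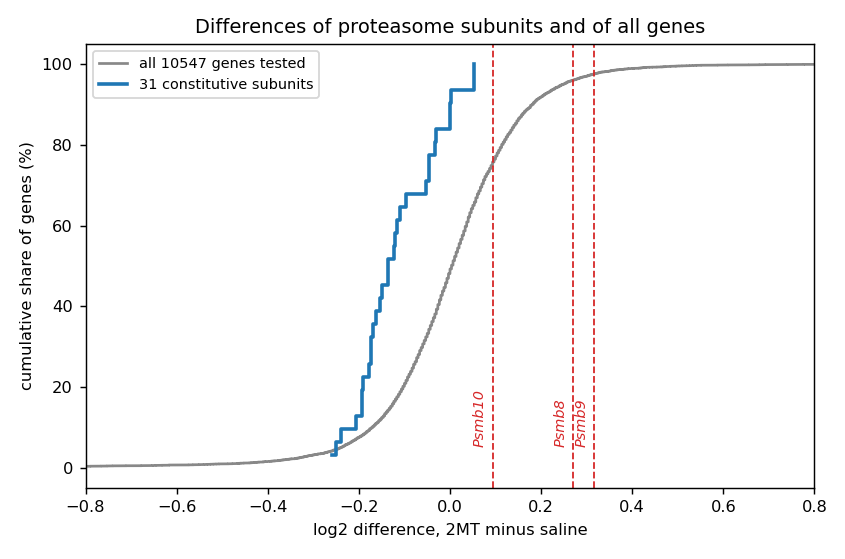
Cumulative share of genes (y axis, percent) against the log2 difference between 2MT and saline (x axis, its central range) for all 10547 tested genes and for the 31 constitutive subunits. Dashed lines mark Psmb8, Psmb9 and Psmb10. The median is -0.14 for the constitutive subunits and 0.00 for all genes.

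RefSeq promoters of some of the subunits compared are shown so that their letters can be set beside the differences that follow. They are the called gene Psmd4, the constitutive catalytic genes Psmb5 and Psmb6, and the inducible genes Psmb8 and Psmb9. Each is the 250 bases before the annotated start on GRCm38.p6, printed 5′ to 3′ on the gene's strand, with capitals at matches to the motifs searched.
Psmd4 (chr3:95042615-95042864, minus strand): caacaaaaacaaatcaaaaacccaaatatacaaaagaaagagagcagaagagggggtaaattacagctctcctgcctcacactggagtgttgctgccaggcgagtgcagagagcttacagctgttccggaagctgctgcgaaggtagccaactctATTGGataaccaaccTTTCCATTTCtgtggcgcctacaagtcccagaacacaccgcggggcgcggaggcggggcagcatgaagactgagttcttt
Psmb5 (chr14:54617996-54618245, minus strand): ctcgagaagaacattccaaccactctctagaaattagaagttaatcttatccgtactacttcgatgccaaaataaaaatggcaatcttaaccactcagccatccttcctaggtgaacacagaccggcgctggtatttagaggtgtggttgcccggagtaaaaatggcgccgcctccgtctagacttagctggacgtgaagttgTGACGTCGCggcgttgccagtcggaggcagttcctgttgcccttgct
Psmb6 (chr11:70525107-70525356, plus strand): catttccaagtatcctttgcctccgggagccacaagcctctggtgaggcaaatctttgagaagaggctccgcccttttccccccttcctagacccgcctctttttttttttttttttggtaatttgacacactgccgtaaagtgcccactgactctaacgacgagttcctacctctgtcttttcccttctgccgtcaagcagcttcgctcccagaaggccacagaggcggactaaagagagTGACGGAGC
Psmb8 (chr17:34197945-34198194, plus strand): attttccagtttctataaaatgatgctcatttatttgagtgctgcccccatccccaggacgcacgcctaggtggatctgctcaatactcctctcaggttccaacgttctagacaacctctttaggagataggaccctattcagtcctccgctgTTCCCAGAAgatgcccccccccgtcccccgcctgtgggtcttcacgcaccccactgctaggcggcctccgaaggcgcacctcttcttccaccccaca
Psmb9 (chr17:34187331-34187580, minus strand): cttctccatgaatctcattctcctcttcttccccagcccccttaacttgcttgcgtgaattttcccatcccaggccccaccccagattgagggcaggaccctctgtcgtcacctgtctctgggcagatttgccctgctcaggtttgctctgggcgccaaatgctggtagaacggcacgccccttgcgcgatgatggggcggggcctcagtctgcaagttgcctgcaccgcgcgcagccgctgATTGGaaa

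These 4 motifs were searched on both strands: TGACNNNGC, the core of the antioxidant response element, CCAAT, the box bound by NF-Y, a core of the interferon-stimulated response element, and TTCNNNGAA, the element bound by STAT proteins. In the printed promoters no match overlapped another. Psmb5 and Psmb6 each held 1 antioxidant core, starting 47 and 9 bases before the start. Psmd4 held a CCAAT box on the reverse strand and an interferon core, Psmb9 held a reverse CCAAT box, and Psmb8 held a STAT element. The promoter of the inducible gene Psmb10, not printed, held no match, and the constitutive catalytic gene Psmb7 had no matched promoter. The table of promoters matched 38 of the 45 members with 42 promoters. Over the 27 promoters of constitutive subunits, 14.8% held the antioxidant core, against 10.2% of all 32851 promoters. The CCAAT box was in 37% of those 27 and in 33.8% of all, the interferon core in 7.41% and 2.98%, and the STAT element in 0% and 7.02%. A match describes letters and is not evidence of binding.

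Psmd4, also known as Rpn10, binds ubiquitin chains on the 19S particle. Its log2 signal was 7.11, 7.03 and 7.01 in saline 1 to 3 and 6.76, 6.81 and 6.80 in 2MT 1 to 3. All 2MT arrays were below all saline arrays. It fell by 0.26 ± 0.07 (SE) with an adjusted p of 0.035 in limma (n = 3 arrays in each group). The call was not stable: without saline 1, saline 2, 2MT 1, 2MT 2 or 2MT 3 its adjusted p was 0.132, 0.0748, 0.108, 0.0967 and 0.119, and the difference stayed between -0.27 and -0.23. It was also lost with no floor on signal (0.0628), with every probe set tested on its own (0.0534) and without the variance trend (0.0759).

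The 6 ATPases that form the unfolding ring at the base of the 19S particle, Psmc1 to Psmc6, behaved alike in rank. In each of the 6 all 2MT arrays lay below all saline arrays, against 10.1% of all tested genes. This also held under the 3 other normalizations, where the share was 9.18% to 11.6%. The 6 genes were read on the same arrays, so they cannot be counted as independent readings. A second, dimmer probe set of Psmc1 overlapped, touching at 7.39. In limma 0 of the 6 passed the adjusted threshold and 3 had an unadjusted p under 0.05. The share of all tested genes lower at that unadjusted p was 8.15%. Psmc3, which had the largest difference among them, was at 7.62, 7.45 and 7.49 in saline and at 7.26, 7.28 and 7.30 in 2MT. Its log2 difference was -0.24 ± 0.06 (SE), with an adjusted p of 0.0509, just outside the threshold. It passed under cyclic loess (0.0464), the stricter floor (0.0442), averaging over probe sets (0.0495) and array weights (0.0426). Psmc5 was at 7.77, 7.87 and 7.87 in saline and at 7.64, 7.64 and 7.65 in 2MT, and its difference of -0.19 ± 0.06 had an adjusted p of 0.0811. The groups of Psmc5 were thus apart by more than their own ranges. The other 4 ATPases differed by -0.18 to -0.11.

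Of the 11 non-ATPase subunits of the 19S particle, 8 had a lower mean in 2MT, 2 a higher mean, and Psmd8 had equal means at 7.79. Besides Psmd4, the groups did not overlap in Psmd2, Psmd7 and Psmd13. Over all tested genes 48.1% had a lower mean in 2MT, and 10.1% were lower without overlap. Psmd7, a lid subunit that pairs with the deubiquitinase Psmd14, was at 8.14, 8.18 and 8.14 in saline and at 7.94, 7.92 and 8.03 in 2MT. Its difference of -0.19 ± 0.06 (SE) had an adjusted p of 0.0766. Psmd2, the large scaffold Rpn1 of the base, was at 9.15, 9.23 and 9.04 against 8.97, 8.94 and 9.0, with an adjusted p of 0.117. It passed without saline 3, the array that lay lowest of the saline group for this gene. Psmd14 itself, which cuts ubiquitin from the substrate, went the other way, at 7.82, 7.74 and 7.84 in saline and at 7.91, 7.78 and 7.87 in 2MT. Its groups overlapped, and its difference of 0.05 had a 95% interval from -0.08 to 0.18, and ran from 0.02 to 0.09 over the alternatives. Psmd12, a lid subunit, also had a mean 0.05 higher in 2MT, and Psmd11, another, a mean 0.17 lower with overlapping groups.

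In the alpha ring, which gates entry to the core, 6 of 7 subunits had a lower mean in 2MT, against 48.1% of all genes. In limma 0 of 7 passed, and 3 were lower at an unadjusted p under 0.05, against 8.15% of all tested genes. Psma5 differed most, at 6.65, 6.56 and 6.72 in saline and 6.40, 6.42 and 6.36 in 2MT. The groups did not overlap, and the difference of -0.25 ± 0.07 (SE) had an adjusted p of 0.0661. A second probe set of Psma5 was at 6.49, 6.43 and 6.67 in saline and at 6.35, 6.45 and 6.61 in 2MT, and its difference was -0.06 with overlapping groups. The mean of both gave -0.16 and an adjusted p of 0.304, so the size for Psma5 depends on the probe set. Without saline 1 or saline 2 the second probe set became the brighter one, and the gene's difference was then -0.08 or -0.11. Psma3 and Psma6 also did not overlap, at differences of -0.12 and -0.15, and 10.1% of all tested genes were lower without overlap. Psma4 differed by 0.00, with a 95% interval from -0.12 to 0.12.

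Of the 4 beta ring subunits without a catalytic site, Psmb1 and Psmb3 were lower in 2MT with no overlap, and Psmb2 and Psmb4 overlapped. The share of all tested genes lower without overlap was 10.1%. Psmb3 was at 7.88, 7.89 and 7.83 in saline and 7.64, 7.55 and 7.79 in 2MT, a difference of -0.21 ± 0.07 (SE, adjusted p = 0.111). Psmb1 was at 8.47, 8.53 and 8.50 against 8.26, 8.35 and 8.4, a difference of -0.16 ± 0.06 (adjusted p = 0.131). Psmb2 had equal means of 8.12, with a 95% interval of the difference from -0.13 to 0.13. In the RefSeq gene table of GRCm38.p6 the 45 members lie on 16 chromosomes, and no other protein-coding gene lies between Psmb5 and Psmb11.

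The catalytic beta subunits come as constitutive genes and inducible counterparts: Psmb5 and Psmb8 carry the chymotrypsin-like site, Psmb6 and Psmb9 the beta1 position, and Psmb7 and Psmb10 the beta2 position with its trypsin-like site. Psmb6 was at 9.11, 9.15 and 9.06 in saline and at 8.97, 8.96 and 8.93 in 2MT, with no overlap (difference -0.15 ± 0.05, SE, adjusted p = 0.108). Psmb5 was at 7.65, 7.48 and 7.67 against 7.55, 7.33 and 7.34, and overlapped through saline 2 and 2MT 1 (difference -0.19 ± 0.08, adjusted p = 0.197). Psmb7 was at 9.47, 9.49 and 9.56 against 9.45, 9.43 and 9.5, a difference of -0.05 (adjusted p = 0.686), and -0.07 to -0.02 over the alternatives. The means of the 3 constitutive catalytic genes were thus lower in 2MT, and 0 of the 3 passed in limma. At an unadjusted p under 0.05 stood 2, and 8.15% of all tested genes were lower at that p.

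All 3 inducible counterparts had a higher mean in 2MT, and 0 of the 3 passed in limma. At an unadjusted p under 0.05 stood 2, and 9.6% of all tested genes were higher at that p. Psmb9 was at 5.18, 5.81 and 5.62 in saline and at 5.84, 5.83 and 5.89 in 2MT. The groups did not overlap, though saline 2 came close to 2MT 2 and the groups overlapped under median centring, and saline 1 was far below the rest. The difference was 0.32 ± 0.13 (SE), with an adjusted p of 0.206, and without saline 1 it was 0.14 (adjusted p = 0.546). Psmb8 was at 5.19, 5.58 and 5.37 in saline and at 5.74, 5.46 and 5.75 in 2MT, where 2MT 2 lay below saline 2. Its difference was 0.27 ± 0.11 (adjusted p = 0.226), and 0.18 without saline 1 (adjusted p = 0.533). Psmb10 was at 6.47, 6.33 and 6.30 against 6.54, 6.38 and 6.46, a difference of 0.09 ± 0.08 (adjusted p = 0.590) that was 0.15 without saline 1 and 0.05 without 2MT 1.

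Whether an inducible subunit and its constitutive counterpart changed unequally was examined on the difference of their log2 signals within each array, in 3 pairs. Psmb8 minus Psmb5 was -2.46, -1.90 and -2.30 in saline and -1.81, -1.87 and -1.59 in 2MT. The 2MT values were all higher, by 0.46 on average, although saline 2 and 2MT 2 were close. Psmb9 minus Psmb6 was -3.93, -3.34 and -3.44 in saline and -3.13, -3.13 and -3.04 in 2MT, higher by 0.47 with no overlap. Psmb10 minus Psmb7 was -3.00, -3.16 and -3.26 against -2.91, -3.05 and -3.04, higher by 0.14 with overlap, and by 0.08 to 0.21 over the alternatives. The exact permutation test (two-sided) gave p = 0.1, 0.1 and 0.3 for these pairs, and 0.15, 0.15 and 0.3 after Benjamini-Hochberg adjustment. With 3 arrays against 3 the smallest p this test can give is 0.1, so no pair could pass. Without saline 1 the first and second pair differed by 0.34 and 0.29.

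**Figure D3:**
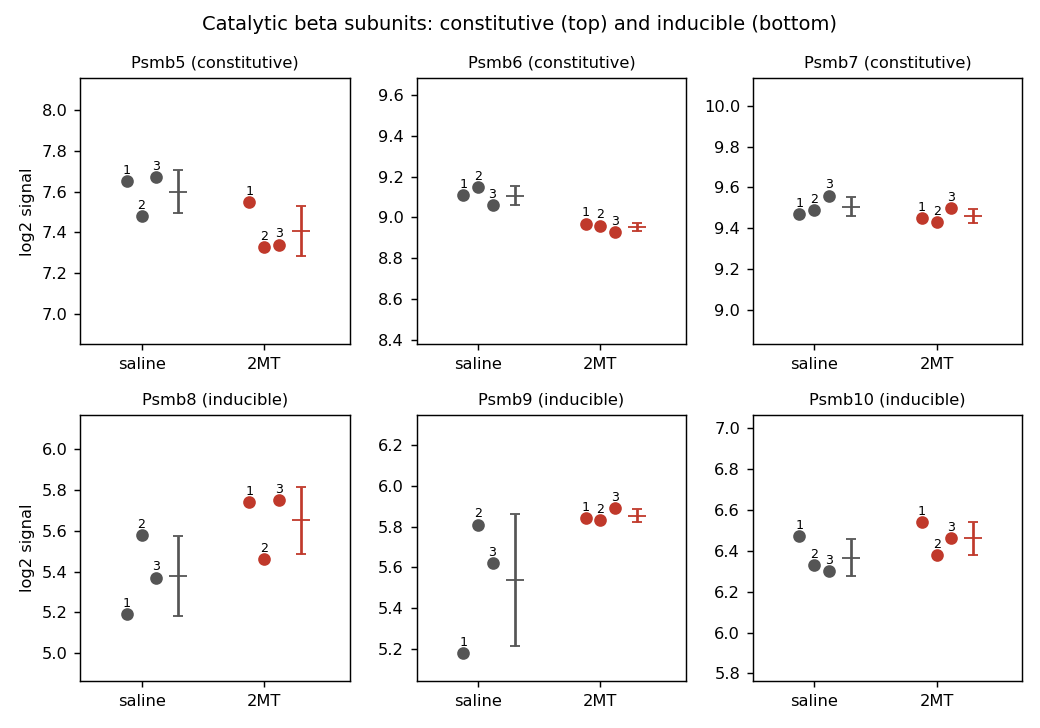
Log2 signal (y axis, each panel spanning the same range of 1.3) of the constitutive catalytic genes Psmb5, Psmb6 and Psmb7 (top) and of their inducible counterparts Psmb8, Psmb9 and Psmb10 (bottom). Points are single arrays, numbered by replicate, and bars are mean ± SD of 3 arrays. Saline 1 lies lowest for Psmb8 and Psmb9, and Psmb6 is lower on all 2MT arrays.

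Markers of antigen-presenting cells were set beside the inducible subunits, since immune cells are known to carry immunoproteasomes. Of 6 such markers 4 lay above the signal floor, their means were higher in 2MT, and 1 of them, H2-Ab1, rose by 0.47 ± 0.11 (SE, adjusted p = 0.026 in limma). The log2 of the summed signal of the 6 was 8.01 to 8.52 in saline and 8.52 to 8.63 in 2MT, and the lowest array was saline 3, whereas Psmb8 and Psmb9 were lowest on saline 1. Flt3 and Itgax lay under the floor. Macrophage markers, 7 of 8 above the floor, summed to 9.21 to 9.41 in saline and 9.21 to 9.38 in 2MT, and 0 of 7 passed (0 also at an unadjusted p under 0.05). Endothelial markers, 7 of 7 above the floor, summed to 10.3 to 10.5 in saline and 10.4 to 10.5 in 2MT, and the list was mixed. Pecam1 fell by 0.33 (adjusted p = 0.020), the means of 4 of the 7 were higher, and at an unadjusted p under 0.05 stood 1 lower and 2 higher, Kdr at 0.24 and Emcn at 0.20. The fibroblast sum was 11.4 to 11.5 in saline and 11.4 to 11.6 in 2MT. The 6 neutrophil markers summed to 6.13 to 6.24 in saline and 5.74 to 5.96 in 2MT, all under the floor as means, and Clec4d was at 4.28, 4.70 and 4.75 against 3.26, 3.65 and 3.14. The groups overlapped in the other 5 neutrophil markers, of which S100a8 and Ly6g had a mean higher in 2MT. The part of cell composition in the subunit differences was not tested.

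The proteasome activators, which open the core without ubiquitin, had means 0.03 to 0.11 higher in 2MT, and 0 of 4 passed in limma (0 at an unadjusted p under 0.05). Psme3, the nuclear PA28 gamma, was at 7.55, 7.46 and 7.63 in saline and 7.71, 7.63 and 7.64 in 2MT, touching at 7.63, with a difference of 0.11 ± 0.06 (SE, adjusted p = 0.387). Psme4, which encodes PA200, was at 9.67, 9.68 and 9.82 against 9.83, 9.85 and 9.77, a difference of 0.09 (adjusted p = 0.388). Over the alternatives they differed by 0.07 to 0.16 and 0.07 to 0.14. Psme1 and Psme2, the interferon-inducible alpha and beta subunits of PA28, differed by 0.03 and 0.04, with 95% intervals from -0.11 to 0.17 and from -0.14 to 0.22. The sign of Psme1 and of Psme2 turned when some single arrays were left out, as low as -0.003 and -0.04. A probe set shared by Psme2 and Psme2b, which is not counted here, differed by 0.07.

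The assembly chaperones of the 19S base were mixed in sign, and 0 of 3 passed in limma (0 at an unadjusted p under 0.05): Psmd5 and Psmd10 (gankyrin) had means 0.04 higher, and Psmd9 a mean 0.12 lower, with overlap in each and adjusted p values from 0.525 to 0.879. Their difference from the subunits was not tested. Psma8 of the testis proteasome was under the floor at 3.16 ± 0.21 in saline and 3.04 ± 0.12 in 2MT, and so was Psmb11 of the thymus proteasome, at 3.51 ± 0.25 and 3.55 ± 0.11 (SD, n = 3). Psmc3ip, a partner in meiotic recombination, and Psme3ip1, which binds Psme3, match the symbol rule but are no subunits. They differed by -0.10 and 0.01.

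The same values were also read by array, which restates the group differences and is no further test. The median deviation of the 31 subunits from their own means over 6 arrays was 0.06, 0.02 and 0.08 on saline 1 to 3 and -0.06, -0.07 and -0.04 on 2MT 1 to 3, so every saline array lay above every 2MT array. For the 6 ATPases it was 0.07, 0.05 and 0.09 against -0.09, -0.08 and -0.09. For the 7 alpha subunits saline 2 was at -0.0017, close to -0.03 on 2MT 3. For the 3 inducible subunits it was -0.33, 0.07 and -0.11 in saline and 0.15, -0.03 and 0.20 in 2MT, which overlap.

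**Figure D4:**
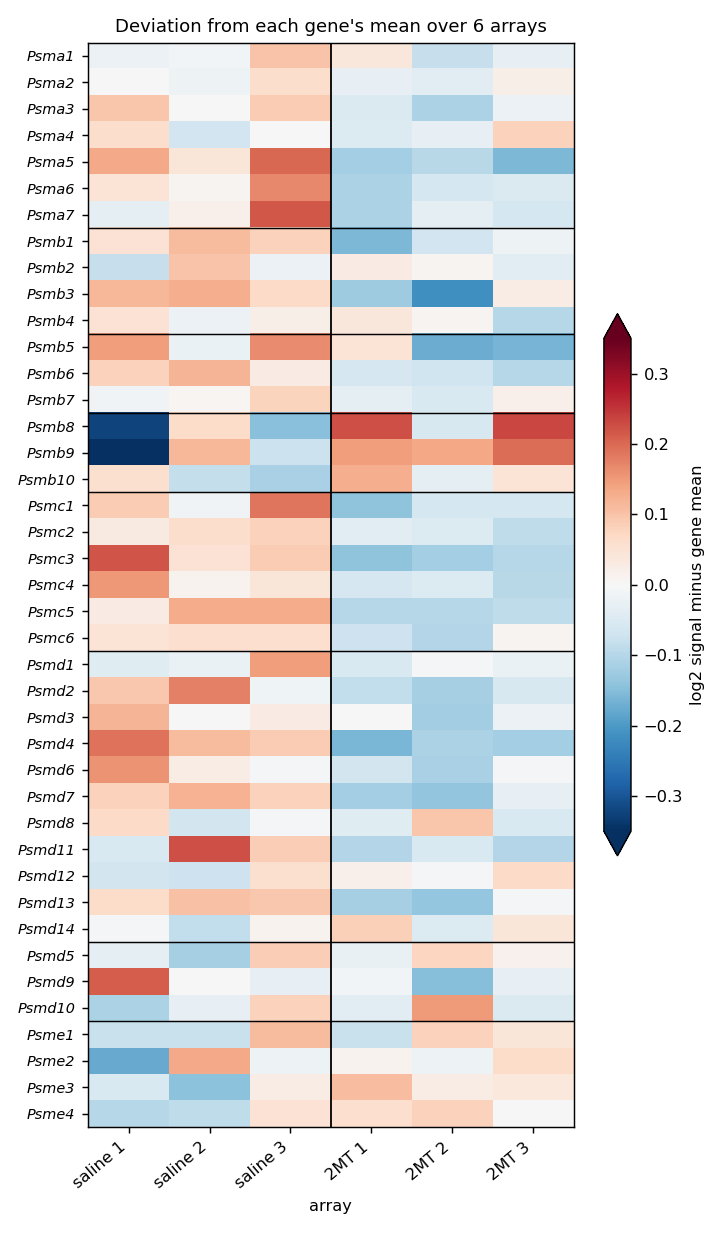
Log2 signal of each gene minus its mean over the 6 arrays (colour scale, from -0.35 to 0.35, with values beyond it drawn in the end colour) for the 41 tested proteasome genes with a known role (rows, by role, separated by lines) on each array (columns). Saline arrays are mostly above and 2MT arrays mostly below the mean for the constitutive subunits. Saline 1 is the low array of Psmb8 and Psmb9.

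Of the members, 5 were named by more than 1 probe set, which gives a repeat reading on the same arrays. Every such probe set had a lower mean in 2MT. The 3 probe sets of Psma3 differed by -0.15, -0.13 and -0.12, with no overlap in any of them. Those of Psmc1 differed by -0.18 and -0.13, those of Psmb3 by -0.21 and -0.11, those of Psmd2 by -0.17 and -0.08, and those of Psma5 by -0.25 and -0.06. In the last 4 genes only the brighter probe set had no overlap. Probe sets of a gene may also read near-identical copies of it elsewhere in the genome.

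Genes that work with the proteasome were followed in lists. Of the assembly factors of the 20S core, 0 of 5 tested genes passed in limma (1 at an unadjusted p under 0.05), with a median of -0.09. Psmg1, a chaperone of alpha ring assembly, was at 6.65, 6.75 and 6.58 in saline and 6.54, 6.41 and 6.44 in 2MT (difference -0.20 ± 0.07, SE, adjusted p = 0.176). Akirin2, which brings proteasomes into the nucleus, differed by -0.12 (adjusted p = 0.414). Of 7 other proteins bound to the proteasome 0 passed (1 at an unadjusted p under 0.05). All 7 had a lower mean, with a median of -0.08, and 48.1% of all tested genes had a lower mean. Sem1, a small lid subunit outside the symbol rule, was at 8.99, 9.02 and 8.90 against 8.73, 8.79 and 8.87, without overlap, and its difference of -0.17 ± 0.06 had an adjusted p of 0.109. Txnl1, a thioredoxin-like protein of the 19S particle, differed by -0.11 (adjusted p = 0.357).

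Upstream of the proteasome, 0 of 9 shuttle and segregase factors passed (0 at an unadjusted p under 0.05). Vcp, the ATPase that extracts ubiquitinated proteins, was at 9.62, 9.65 and 9.61 in saline and at 9.5, 9.54 and 9.56 in 2MT (difference -0.09, adjusted p = 0.313), and its cofactor Nploc4 differed by -0.10 (adjusted p = 0.397). Of the ubiquitin genes and their activating enzymes only Uba6 had a probe set of its own among 6 listed, and it differed by 0.07 (adjusted p = 0.718), or 0.02 without 2MT 2.

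Among 8 regulators of proteasome genes or activity 1 fell and 0 rose, against 2.41% and 2.22% of all tested genes. The means of 4 were higher. At an unadjusted p under 0.05 stood 2 lower and 1 higher, against 8.15% and 9.6% of all tested genes. Zfand5, a zinc finger protein that stimulates the 26S proteasome, was at 8.30, 8.28 and 8.23 in saline and at 7.94, 8.03 and 8.07 in 2MT. It fell by 0.26 ± 0.06 (SE, adjusted p = 0.020 in limma), and lost the call without saline 1 (0.079), saline 2 (0.0645), 2MT 1 (0.0816), 2MT 2 (0.0645) or the variance trend (0.0891). Nfe2l2, the gene of NRF2, was at 7.62, 7.66 and 7.54 against 7.31, 7.31 and 7.46, with no overlap. Its difference of -0.25 ± 0.07 had an adjusted p of 0.0504, just outside the threshold, and 0.036 to 0.187 over the alternatives. Zfand2a, a zinc finger protein known to bind the proteasome under arsenite stress, differed most in the list, at 7.2, 7.25 and 7.68 against 7.59, 7.74 and 7.74. Its groups overlapped, and its difference of 0.31 ± 0.10 had an adjusted p of 0.116. Nfe2l1, the gene of NRF1, was at 8.58, 8.75 and 8.51 against 8.58, 8.66 and 8.65, a difference of 0.02 with a 95% interval from -0.12 to 0.15, and it was 0 without saline 1 and -0.035 without saline 3.

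Of 16 tested genes of interferon response and MHC class I antigen processing 0 passed in limma, with a median of 0.05. At an unadjusted p under 0.05 stood 4, all higher in 2MT: Pdia3, Calr, Ifngr1 and Ifngr2. The share of all tested genes higher at that p was 9.6%. The means of 11 of the 16 were higher and of 4 lower. Ifit1 and Ifit3 differed by 0.07 and 0, and Tap2 and Tapbp by -0.06 each. Pdia3, a disulfide isomerase of the peptide loading complex, was at 8.33, 8.25 and 8.19 in saline and at 8.58, 8.34 and 8.57 in 2MT (difference 0.24 ± 0.07, SE, adjusted p = 0.0688). It passed without 2MT 2 (0.0255). Ifngr2, a chain of the interferon gamma receptor, was at 9.89, 9.96 and 10.00 against 10.09, 10.10 and 10.09 (difference 0.14, adjusted p = 0.105). Tap1, the peptide transporter and the 1 protein-coding gene listed between Psmb9 and Psmb8 in the RefSeq table, was at 5.0, 4.72 and 4.67 against 4.85, 4.80 and 4.84. Its difference was 0.03 ± 0.11 (adjusted p = 0.918). Irf1, an activator of immunoproteasome genes, differed by -0.21 ± 0.10 (adjusted p = 0.313), or -0.13 without 2MT 2 (adjusted p = 0.662). B2m, the MHC class I light chain, differed by 0.01 (adjusted p = 0.966). The signs of Tap1 and B2m turned with some single arrays left out, and that of B2m also under cyclic loess.

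**Figure D5:**
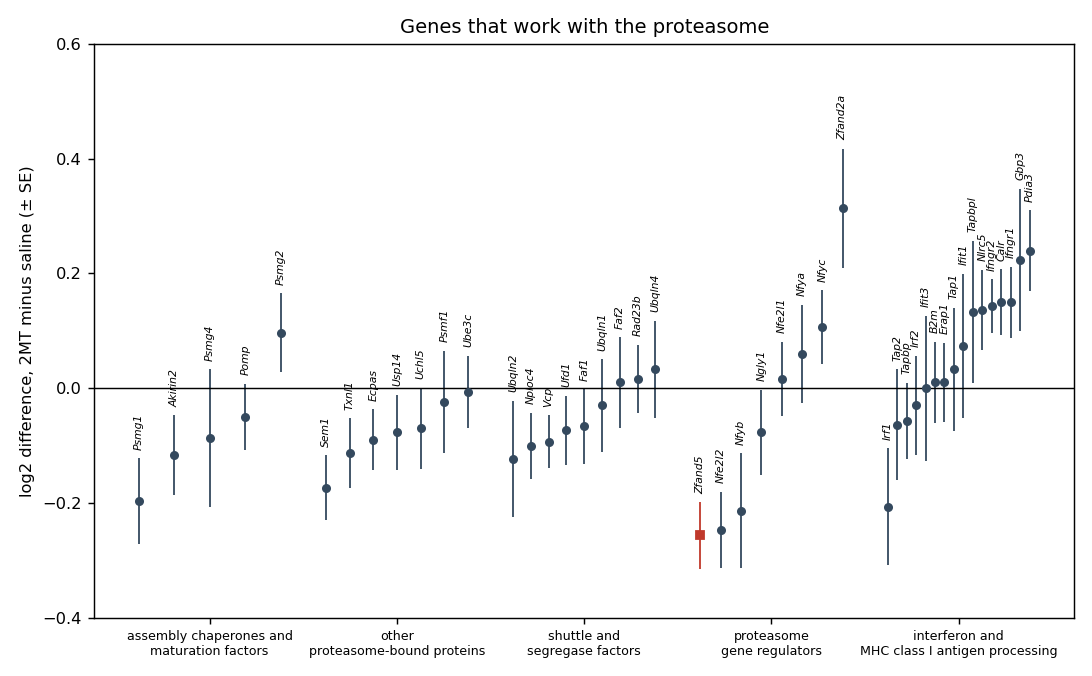
Log2 difference between 2MT and saline (y axis) for tested genes that work with the proteasome, in 5 lists along the x axis and ordered by difference within each. Points are differences of means of 3 arrays, bars are SE from limma, and the red square marks Zfand5, the only gene shown past an adjusted p of 0.05. Proteasome-bound proteins lie below 0 throughout, and Zfand2a lies highest at 0.31.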

How the data were processed

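The deposited table gives 1 value per probe set and array for 6 arrays, taken as log2 signal because it runs from 0.51 to 13.5; no header states the base. The submitters' processing notes name MAS5 with no version or role, and the normalization is not given in the sources used here. Values were used as deposited. Probe sets were named through the platform annotation. The brightest probe set on average stood for each gene, and genes under a mean of 4.345 were left out. Groups were compared over all 10547 remaining genes with limma 3.58.1 in R 4.3.3 (lmFit, eBayes with a variance trend, two-sided, group as the only term) and Benjamini-Hochberg adjustment, which gave every adjusted p of a gene. Pair differences had an exact permutation test. No count depth exists for arrays, no detection calls were used, and precision is limited by how many arrays there are. The procedure was tested on simulated data, with changes larger than those of the proteasome genes. That test does not show how well shifts as small as theirs are found.

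Members and lists were chosen with earlier results of these data known. The 14 lists hold 117 symbols, of which 99 had a probe set of their own, and the others are not reported here. Named genes were every called member, the catalytic, activator and ubiquitin-handling members, the 6 highest and 6 lowest differences, untested members, called genes and the 2 smallest p values of each pathway list, and genes fixed by name, among them Nfe2l1, Nfe2l2, Tap1, Irf1 and B2m; other members were added to describe their groups. Some further list genes are named to describe their lists. Promoters came from RefSeq. Figures were drawn with matplotlib 3.10.9.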

Additional observations from a re-analysis of the deposited data

How the results depend on the processing

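Alternatives changed 1 choice at a time. The number of called members, 1 of 43, became 2 under cyclic loess, the stricter floor (1 higher on the log2 scale), averaging over probe sets and array weights, 0 with no floor, separate tests of all probe sets, no variance trend or a threshold of 0.01, and 5 at a threshold of 0.1, all of them lower in 2MT. It ran from 0 to 2 with 1 array left out. At an unadjusted p under 0.05 the count was 11 to 19 over all settings in limma. Over all genes the 488 calls became 292 without the variance trend, 219 at 0.01 and 768 at 0.1, and ran from 261 to 646 with 1 array left out. The constitutive median ran from -0.15 to -0.11 and the inducible one from 0.15 to 0.37 with 1 array left out, and neither changed sign in any setting. The 3 pair differences kept their sign in every setting run. The count of constitutive subunits lower in 2MT without overlap was an alternative chosen after seeing the data. It was 13 to 18 under other normalizations, against 9.18% to 11.6% of all genes. With 1 array left out it was 17 to 19, against 13.8% to 17.1% of all genes. The count was not run with the stricter floor, and the shares of all genes were not matched for signal. The subunits cannot be counted as independent readings. Leaving out an array cannot bring overlap to groups of the same probe set that had none. The replicate block gave 1 called member and 586 genes. Deviations of same-numbered arrays had correlations of 0.07, 0.04 and 0.02, and those of other pairs ran from -0.083 to 0.040. Each 2MT array correlated best with the saline array of its number. The labels do not say whether the numbers pair samples, and that was not tested. Saline 3 correlated better with 2MT 2 (0.0396) than with its own number, and the block brought the adjusted p of Pdia3 to 0.0405. Of the named genes, 5 that passed in no setting changed sign or reached 0, and the cause was not tested. With 1 array left out, the log2 difference of Psme1 ran from -0.0033 to 0.093 (-0.0017 without saline 1 or saline 2), of Psme2 from -0.038 to 0.12, of Nfe2l1 from -0.035 to 0.085 (0 without saline 1), of Tap1 from -0.03 to 0.14 (-0.005 without saline 2) and of B2m from -0.043 to 0.093 (-0.032 without 2MT 1 or 2MT 3). That of B2m was -0.0096 under cyclic loess. The median of all genes stayed within -0.003 to 0.008.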
